A study of Mus musculus with 12 samples.

Results

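The genes described here are 9 that are known for rising in reactive astrocytes or in the acute phase response: Cp, Lcn2, Serping1, Steap4, Timp1, Cd44, S1pr3, Serpina3n and Anxa1. They were named by symbol, and each was read from the probe set that carries only that symbol and has the highest mean over the 12 arrays, as log2 of intensity. All 9 were measured, each by 1 probe set, out of 19938 genes read in that way. The arrays were Affymetrix Mouse Gene 1.0 ST arrays, which measure mouse transcripts with probes spread over each gene. Astrocytes were turned toward induced pluripotent stem cells (iPSCs) with retroviruses for Oct4, Klf4, Sox2 and c-Myc, and 5 groups of cells were compared.

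Reactive astrocytes are astrocytes that respond to injury, infection or inflammation. Their response includes secreted proteins that bind iron, inhibit proteases or remodel the matrix, and receptors for lipids and matrix sugars. In the liver, several of the same genes are induced by interleukin-6 family cytokines acting through STAT3 and C/EBP factors, and by interleukin-1 and tumour necrosis factor acting through NF-kB, and this is called the acute phase response. Astrocytes grown in serum are known to show part of the reactive state.

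The astrocyte iPSCs (2 arrays) were mature lines from Sox1-GFP reporter (Sox1+/-) astrocytes, in which green fluorescent protein replaces 1 copy of Sox1. The MEF iPSCs (2 arrays) were the line iPS-MEF-Ng-20D-17, made from mouse embryonic fibroblasts (MEFs) and carrying a Nanog-GFP-IRES-Puro reporter in place of Sox1-GFP. Both were grown on MEF feeder cells arrested with mitomycin C, with 1500 U/ml of leukaemia inhibitory factor (LIF) and 15% serum or a serum replacement. The labels do not say whether feeder cells were removed before RNA extraction. The day 6 cells (3 arrays) were GFP-positive cells sorted at day 6 of reprogramming, from Sox1-GFP (Sox1+/-) astrocytes that had received the 4 factors, in medium with 15% serum and 1000 U/ml of LIF. The neural stem cells, NSCs (2 arrays), came from the telencephalon of Sox1-GFP (Sox1+/-) embryos of day 12.5 to 14.5 and were kept in N2 medium with 20 ng/ml of bFGF and 20 ng/ml of EGF. The astrocytes (3 arrays) were cultured from cortex of Sox1-GFP (Sox1+/-) mice at postnatal day 3 in 10% serum and sorted as GFP-negative cells, before any factor was given. Medium, age and culture therefore go with the groups and cannot be told apart from cell type. No GFP-negative day 6 cells were analysed here, so a change in each cell cannot be told apart from the choice of cells made by sorting. On these bulk arrays, fewer cells of a type and less RNA per cell cannot be told apart.

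The labels were checked with marker genes. In the astrocytes 10 of 12 astrocyte markers lay above the array's median on every array (all but Gjb6 and S100b), and their summed intensity was 2987 to 3153 in day 6 cells, 9201 to 9816 in NSCs and 21944 to 26433 in astrocytes. All 8 pluripotency markers lay above the median on every iPSC array. All 7 measured NSC markers did so on the NSC arrays and also on the day 6 and astrocyte arrays. Their summed intensity was far lower in day 6 cells (1873 to 1968) than in NSCs (13964 to 14092) or astrocytes (13781 to 14945). Against each of these groups 3 of the 7 were called lower in day 6 cells and 0 higher. The NSC arrays also carried neuron markers, with 7 of 8 above the median on every array (all but Slc17a7), against 1 of 8 (Stmn2) in each other group. Without Stmn2, the summed intensity of neuron markers was 509 to 536 in day 6 cells, 1912 to 3309 in NSCs and 496 to 516 in astrocytes. Microglia markers, 14 in all, summed to 864 to 935 in day 6 cells, 832 to 837 in NSCs and 1118 to 1539 in astrocytes, where only Cd68 and C1qa lay above the median on every array. Between arrays of 1 group, Pearson's r over probe sets was 0.992 to 0.996. The submitters call the replicates biological, but no label says that they came from separate animals or cultures, so the p-values cover only the spread seen among these arrays, and part of it may be technical.

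Promoters were taken from RefSeq (build GRCm38.p6) for 8 of the 9 genes, all but Serping1, as the 250 bases before the transcription start, and searched on both strands for 4 motifs of acute phase regulators. These were the STAT motif TTCNNNGAA, the C/EBP motif TTGCNNAA, the AP-1 motif TGANTCA and the NF-kB motif. Of 32851 mouse promoters of that length, 7.02% hold the STAT motif, 9.56% the C/EBP motif, 6.75% the AP-1 motif and 7.25% the NF-kB motif. A match to at least 1 of the 4 motifs was found for 4 of the 8 genes, namely Cp, Lcn2, Steap4 and Anxa1. Cp was searched at 2 transcription starts, with 1 match in each window, so 9 windows were searched in all. The share of promoters with any of the 4 motifs was not counted, so the count of genes has no background to set beside it. The sequences below are shown for Steap4, which held 4 matches and changed least, for Lcn2, one of the genes that fell, and for Timp1 and Anxa1, the 2 genes that rose in day 6 cells. Capitals mark the matches. In Steap4 (chr5:7960222-7960471, + strand) these are the STAT match TTCCCGGAA, ending 108 bases before the start, the C/EBP match and 2 NF-kB matches. In Lcn2 (chr2:32387740-32387989, - strand) and Anxa1 (chr19:20390672-20390921, - strand) a single C/EBP match is marked in each. The Timp1 window (chrX:20869916-20870165, + strand) holds none of the 4 motifs.
Steap4: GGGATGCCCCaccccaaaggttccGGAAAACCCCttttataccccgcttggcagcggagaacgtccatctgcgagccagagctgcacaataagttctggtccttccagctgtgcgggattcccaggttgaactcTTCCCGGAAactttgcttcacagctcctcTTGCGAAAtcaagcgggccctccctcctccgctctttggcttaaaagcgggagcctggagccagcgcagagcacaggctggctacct
Lcn2: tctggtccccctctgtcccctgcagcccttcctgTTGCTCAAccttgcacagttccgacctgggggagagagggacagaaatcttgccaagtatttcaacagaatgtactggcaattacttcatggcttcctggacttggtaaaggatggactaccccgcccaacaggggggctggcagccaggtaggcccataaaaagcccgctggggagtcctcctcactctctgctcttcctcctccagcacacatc
Timp1: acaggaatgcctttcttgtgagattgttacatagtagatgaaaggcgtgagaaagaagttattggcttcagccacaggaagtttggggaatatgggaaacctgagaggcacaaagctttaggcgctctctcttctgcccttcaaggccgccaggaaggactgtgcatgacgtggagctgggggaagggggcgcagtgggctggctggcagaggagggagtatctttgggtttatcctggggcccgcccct
Anxa1: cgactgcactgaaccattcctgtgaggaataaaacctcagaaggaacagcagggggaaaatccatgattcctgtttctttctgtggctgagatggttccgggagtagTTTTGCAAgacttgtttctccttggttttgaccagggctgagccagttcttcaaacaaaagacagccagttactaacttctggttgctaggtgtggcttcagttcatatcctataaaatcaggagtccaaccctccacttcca

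A gene is said to have risen or fallen where limma's Benjamini-Hochberg adjusted p over all 19938 genes was under 0.05 and the log2 fold change was at least 1 in size. The central comparison sets day 6 cells against the astrocytes they came from. Here 5 of the 9 genes fell (Cp, Lcn2, Serping1, S1pr3 and Serpina3n), 2 rose (Timp1 and Anxa1) and Cd44 and Steap4 did neither. Of all genes 16.9% changed in this comparison, 6.75% upward and 10.1% downward. The median log2 fold change of the 9 genes was -1.71, against 0.04 for all genes. The arrays of the 2 groups did not overlap for 8 of the 9 genes, all but Steap4, with 2 of them higher on every day 6 array and 6 lower. Of all genes 55.9% did not overlap, 28.6% higher and 27.3% lower on every day 6 array. Of 12 markers of fibroblasts and meninges 5 fell and 0 rose in this comparison, and their part in the result was not tested.

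**Figure D1:**
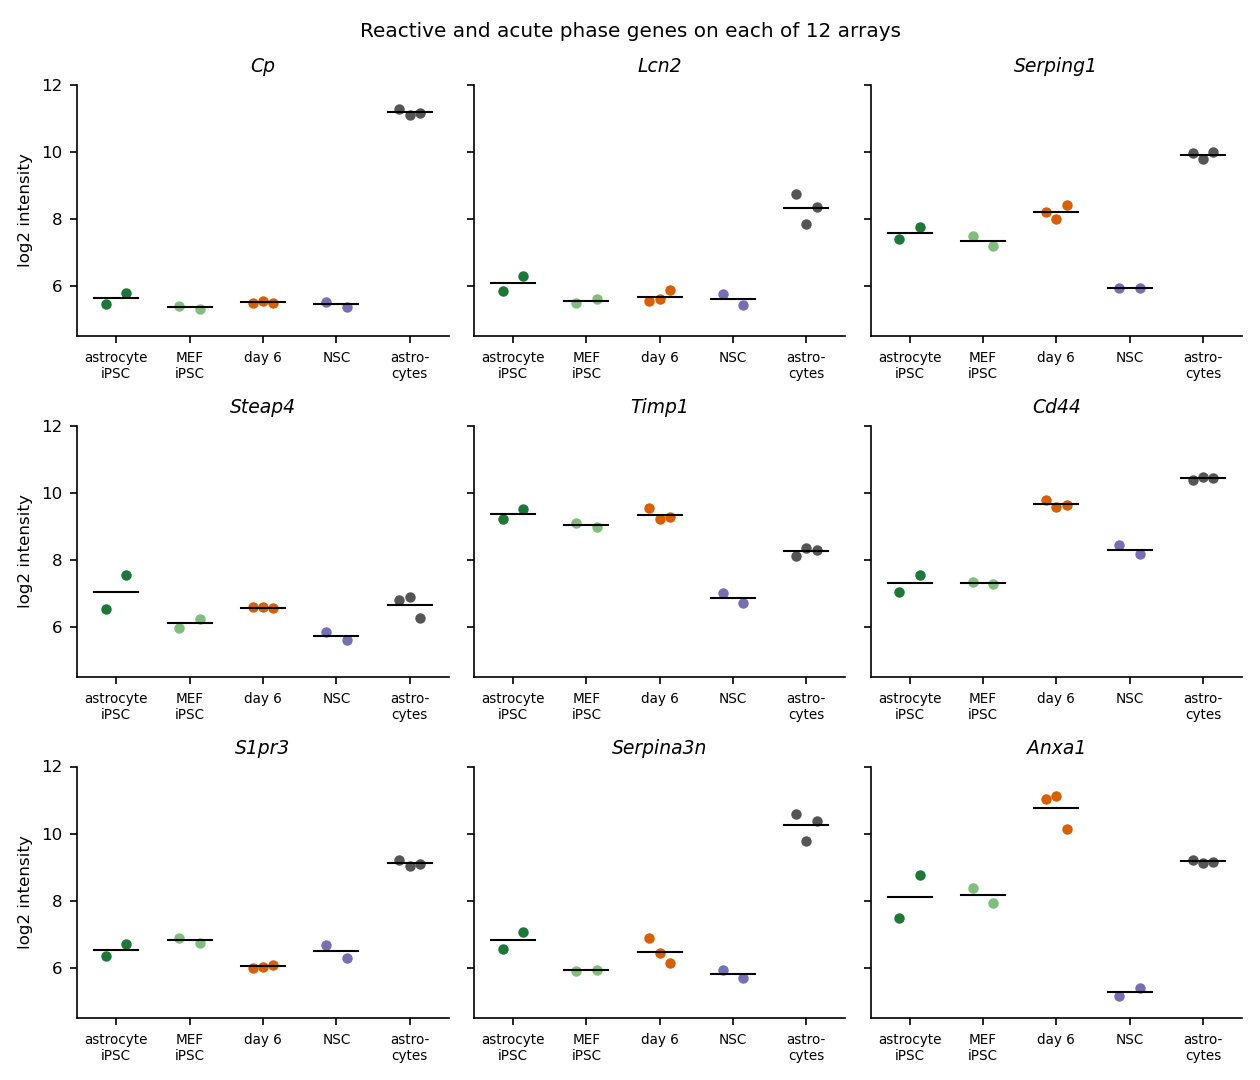
Log2 intensity of each of the 9 genes (vertical axis) on every array (points), by group, with the group mean as a line. Cp, Lcn2, S1pr3 and Serpina3n stand high only in the astrocyte column, Timp1 is at 9.21 to 9.53 in day 6 cells and at 8.12 to 8.34 in astrocytes, and Anxa1 is highest in day 6 cells.

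Of the genes that handle iron, copper and the siderophores that carry iron, Cp encodes ceruloplasmin, the copper protein that oxidises ferrous iron so that it can leave the cell. Cp (chr3:19956933-20009750 in GRCm38.p6) had log2 intensities of 5.46 and 5.80 in astrocyte iPSCs, 5.41 and 5.31 in MEF iPSCs, 5.48, 5.56 and 5.50 in day 6 cells and 5.52 and 5.38 in NSCs, against 11.27, 11.10 and 11.15 in astrocytes. The 9 arrays other than astrocytes all lay within a narrow band far below the 3 astrocyte arrays. The log2 fold change in day 6 cells against astrocytes was -5.66 ± 0.09 (SE, adjusted p = 6.5e-12), and that of NSCs against astrocytes -5.73 ± 0.10. No array outside the astrocytes reached its array's median for Cp, and among these 4 groups no neighbours in the order of level differed (adjusted p of 0.46 to 0.63). Among 9 other genes of iron and copper handling, 1 rose and 2 fell in day 6 cells against astrocytes. Tfrc, the transferrin receptor by which cells take up iron, read 10.72, 10.84 and 10.75 in day 6 cells and 7.74, 7.49 and 6.87 in astrocytes, a log2 fold change of 3.40 ± 0.17. Fth1, the heavy chain of the iron store ferritin, fell (-1.41 ± 0.07), as did Atp7b, a copper pump (-1.17 ± 0.10). Slc40a1, the iron exporter that works with ceruloplasmin, was not called, at a log2 fold change of 0.29 ± 0.11. Its group means, 5.83 in day 6 cells and 5.54 in astrocytes, both lay below the array medians.

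Lcn2 encodes lipocalin-2, a secreted protein that binds iron-loaded siderophores and is a common marker of reactive astrocytes. Lcn2 (chr2:32384637-32387739) had log2 intensities of 5.85 and 6.30 in astrocyte iPSCs, 5.49 and 5.61 in MEF iPSCs, 5.55, 5.62 and 5.87 in day 6 cells and 5.77 and 5.43 in NSCs, against 8.73, 7.84 and 8.36 in astrocytes. All astrocyte arrays were above all others, and they spread more than those of Cp. Day 6 cells differed from astrocytes by a log2 fold change of -2.62 ± 0.20 (adjusted p = 4.7e-07). The highest astrocyte value came from replicate 1, whose summed microglia markers were also the highest of the group (1539, against 1186 and 1118), and their part in the result was not tested. Without that array the fold change was -2.41. Of the proteins that take up lipocalin-2, Lrp2 (megalin) and Slc22a17 both fell in day 6 cells against astrocytes, by log2 fold changes of -3.25 ± 0.20 and -1.42 ± 0.15.

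Steap4 encodes a membrane metalloreductase that reduces iron and copper. Steap4 (chr5:7960472-7982213) had log2 intensities of 6.54 and 7.54 in astrocyte iPSCs, 5.98 and 6.25 in MEF iPSCs, 6.58, 6.59 and 6.56 in day 6 cells and 5.84 and 5.60 in NSCs, against 6.79, 6.89 and 6.28 in astrocytes. Astrocytes and day 6 cells overlapped, with the day 6 arrays inside the astrocyte range. Steap4 lay above the array's median on 2 of the 3 astrocyte arrays, 1 of the 2 astrocyte iPSC arrays and no other array. The small difference is therefore between levels near or below the array medians, and cannot show that expression was steady. The log2 fold change in day 6 cells against astrocytes was -0.08 ± 0.22, with a 95% confidence interval of -0.57 to 0.41, and it turned to 0.02 with arrays centred on their medians and to 0.04 without astrocytes replicate 2. Over the 10 pairs of groups Steap4 was called in 1, the fewest of the 9 genes, and Anxa1 in 9, the most. The other metalloreductases Steap1, Steap2 and Steap3 were not called in day 6 cells against astrocytes, with log2 fold changes of -0.20, -0.95 and -0.56. Steap1, with group means of 6.01 in day 6 cells and 6.21 in astrocytes, lay below the array medians in both.

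Of the protease inhibitors, Serping1 encodes the C1 inhibitor, which blocks the first proteases of the complement cascade. Serping1 (chr2:84765360-84775444) had log2 intensities of 7.40 and 7.75 in astrocyte iPSCs, 7.50 and 7.18 in MEF iPSCs, 8.20, 8.0 and 8.40 in day 6 cells and 5.93 and 5.95 in NSCs, against 9.95, 9.79 and 9.98 in astrocytes. It was graded, with day 6 cells below astrocytes, both iPSC groups below day 6 cells, and NSCs lowest. In day 6 cells against astrocytes its log2 fold change was -1.71 ± 0.12 (adjusted p = 2.8e-07). The C1 proteases that this inhibitor blocks also fell, C1s1 at -1.53 ± 0.14 and C1ra at -1.46 ± 0.09.

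Serpina3n encodes a secreted serine protease inhibitor related to human alpha-1-antichymotrypsin. Serpina3n (chr12:104406646-104414334) had log2 intensities of 6.57 and 7.08 in astrocyte iPSCs, 5.92 and 5.95 in MEF iPSCs, 6.88, 6.44 and 6.15 in day 6 cells and 5.95 and 5.69 in NSCs, against 10.58, 9.77 and 10.39 in astrocytes. All astrocyte arrays were above all others. The log2 fold change in day 6 cells against astrocytes was -3.76 ± 0.23 (adjusted p = 6.3e-08), and -3.59 without astrocytes replicate 1. It belongs to a cluster of closely related genes, so signal from other copies cannot be told apart here. Among 4 other serpins measured, Serpinf1, which encodes the secreted factor PEDF, fell (-5.36 ± 0.13), and Serpinh1, a collagen chaperone, was not called (-0.91 ± 0.14).

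Timp1 encodes a secreted inhibitor of matrix metalloproteinases. Timp1 (chrX:20870166-20874737) had log2 intensities of 9.21 and 9.52 in astrocyte iPSCs, 9.09 and 8.99 in MEF iPSCs, 9.53, 9.21 and 9.26 in day 6 cells and 7.0 and 6.71 in NSCs, against 8.12, 8.34 and 8.30 in astrocytes. Every day 6 and iPSC array was above every astrocyte array, and both NSC arrays were below. Against astrocytes the day 6 cells had a log2 fold change of 1.08 ± 0.12 (adjusted p = 8.7e-06), just past the fold limit. It fell short of the limit with cyclic loess normalization (1.00 after rounding) and without day 6 replicate 1 (0.98). The other 3 inhibitors of the family moved the opposite way. Timp2 read 7.39, 7.16 and 7.04 in day 6 cells and 12.22, 12.35 and 12.25 in astrocytes, a log2 fold change of -5.07 ± 0.23. Timp3 (-3.54 ± 0.17) and Timp4 (-2.60 ± 0.14) fell as well. Of the proteases they inhibit, Mmp14, a membrane-bound enzyme, fell (-1.79 ± 0.17), and Mmp2, Mmp3 and Mmp9 were not called (-0.54, -0.10 and 0.02). In day 6 cells and astrocytes the group means of Mmp3 (5.30 and 5.40) and Mmp9 (5.97 and 5.95) lay below the array medians. Cd63, a membrane protein that binds Timp1, fell (-1.68 ± 0.13), and of all 9 genes on this list 6 fell and 0 rose.

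**Figure D2:**
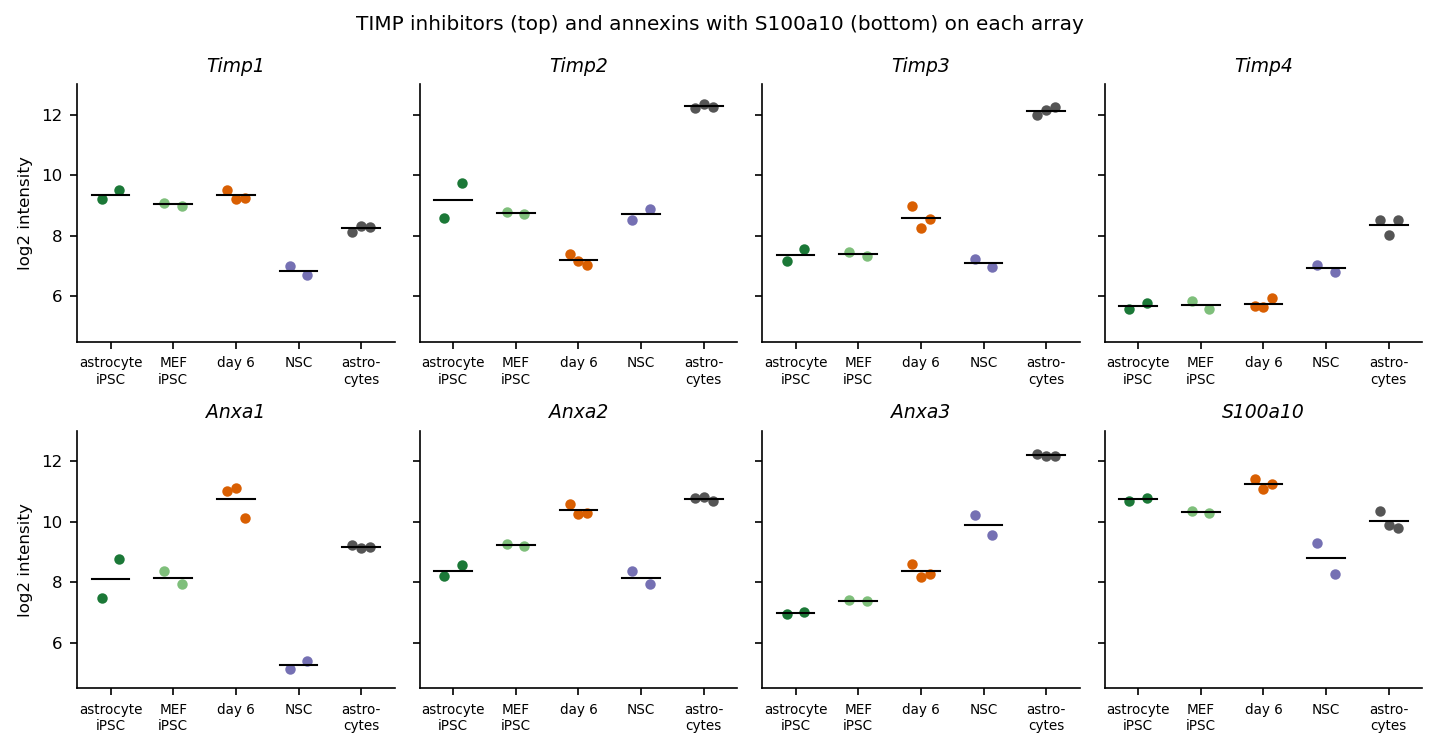
Log2 intensity on every array (points) with group means (lines) for the 4 TIMP inhibitors (top) and for 3 annexins and S100a10 (bottom). Timp1 is higher in day 6 cells than in astrocytes while Timp2, Timp3 and Timp4 are lower, and Anxa1 is higher while Anxa3 is lower.

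Of the 2 surface receptors, Cd44 encodes the receptor for the matrix sugar hyaluronan. Cd44 (chr2:102811141-102901669) had log2 intensities of 7.04 and 7.55 in astrocyte iPSCs, 7.35 and 7.29 in MEF iPSCs, 9.78, 9.58 and 9.64 in day 6 cells and 8.43 and 8.18 in NSCs, against 10.38, 10.47 and 10.45 in astrocytes. The day 6 arrays lay below the astrocyte arrays and above all NSC and iPSC arrays. The log2 fold change in day 6 cells against astrocytes was -0.77 ± 0.12 (adjusted p = 0.00016), which passed the p limit and not the fold limit. Of 5 other measured genes of hyaluronan and its binding, Vcan, the hyaluronan-binding proteoglycan versican, fell (-1.77 ± 0.17). The hyaluronan synthases Has1, Has2 and Has3 were not called (0.03, -0.01 and 0.07). Their group means, 5.26 to 6.12 in day 6 cells and 5.19 to 6.09 in astrocytes, lay below the array medians, so they cannot show steady expression.

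S1pr3 encodes a receptor for sphingosine 1-phosphate, a lipid signal released from platelets and injured tissue. S1pr3 (chr13:51408618-51422797) had log2 intensities of 6.35 and 6.71 in astrocyte iPSCs, 6.90 and 6.75 in MEF iPSCs, 6.01, 6.04 and 6.08 in day 6 cells and 6.68 and 6.31 in NSCs, against 9.23, 9.04 and 9.11 in astrocytes. Day 6 cells were lowest and astrocytes far above all others. Set against astrocytes, day 6 cells had a log2 fold change of -3.08 ± 0.11 (adjusted p = 1.3e-09). Of 7 other genes of this pathway, the receptor S1pr1 (-2.49 ± 0.11) and Sgpl1, the lyase that breaks the lipid down (-2.15 ± 0.06), fell and 0 rose. The receptors S1pr2, S1pr4 and S1pr5 were not called, with log2 fold changes of -0.15, 0.11 and 0.18.

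Anxa1 encodes annexin A1, a phospholipid-binding protein induced by glucocorticoids that limits inflammation through formyl peptide receptors. Anxa1 (chr19:20373434-20390671) had log2 intensities of 7.48 and 8.77 in astrocyte iPSCs, 8.38 and 7.94 in MEF iPSCs, 11.03, 11.13 and 10.13 in day 6 cells and 5.15 and 5.41 in NSCs, against 9.23, 9.14 and 9.17 in astrocytes. All day 6 arrays were above all others, and the NSC arrays were far below. Its log2 fold change in day 6 cells was 1.58 ± 0.31 against astrocytes (adjusted p = 0.0011) and 5.48 ± 0.35 against NSCs (adjusted p = 3e-07). Day 6 replicate 3 was the lowest of its group, and without it the fold change against astrocytes was 1.90. Of 8 measured genes on a list of other annexins and their partners and receptors, which does not hold S100a10, 3 fell and 0 rose in day 6 cells against astrocytes. These were Anxa3 (-3.84 ± 0.14), Anxa11 (-1.32 ± 0.19) and Anxa5 (-1.06 ± 0.22), and Anxa2 was not called (-0.38 ± 0.13). The Anxa5 call was lost with arrays centred on their medians and without day 6 replicate 2 (-0.96 at the smallest). S100a10, the partner of annexin A2, which was on the ischaemia list, rose (1.22 ± 0.22), and this call was lost with cyclic loess (0.99).

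Wider lists of reactive and acute phase genes were read beside the 9, with the 9 themselves left out of them. Of all genes 6.75% rose and 10.1% fell in day 6 cells against astrocytes. Of 6 genes that rise in reactive astrocytes of several kinds, 3 fell and 1 rose in day 6 cells against astrocytes, with a median log2 fold change of -1.22. Gfap, the intermediate filament of astrocytes (-5.95 ± 0.12), Osmr, the oncostatin M receptor (-2.41 ± 0.18), and Cxcl10, an interferon-induced chemokine (-1.50 ± 0.19), fell. Hspb1, a small heat shock protein, rose (1.05 ± 0.13), a call lost with cyclic loess and without astrocytes replicate 2 or day 6 replicate 1 (0.92 at the smallest). Of 6 measured genes of the neuroinflammatory reactive state 3 fell and 1 rose, with a median of -0.62. Fbln5, a matrix protein (-2.03 ± 0.15), Psmb8, a subunit of the immunoproteasome (-1.44 ± 0.12), and Iigp1, an interferon-induced GTPase (-1.05 ± 0.12), fell, the call of Iigp1 being lost with arrays centred on their medians and without astrocytes replicate 1. The Iigp1 group means, 5.85 in astrocytes and 4.80 in day 6 cells, both lay below the array medians, so its fall is between low levels. Fkbp5, a glucocorticoid-induced chaperone, rose (1.86 ± 0.13).

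Of 12 genes of the reactive state after ischaemia, 3 fell, 1 rose and 8 were not called, with a median of -0.26. Clcf1, a cytokine of the interleukin-6 family (-2.46 ± 0.14), B3gnt5, a glycosyltransferase (-2.27 ± 0.15), and Ptx3, a soluble pattern receptor (-1.85 ± 0.20), fell, and S100a10 was the 1 that rose. Ptgs2, the inducible cyclooxygenase, read 11.03, 10.27 and 10.58 in day 6 cells and 10.91, 10.88 and 10.52 in astrocytes, and the groups overlapped (-0.14 ± 0.23). Cd109, a membrane co-receptor of transforming growth factor beta, had a log2 fold change of 0.25 ± 0.17 and Emp1, a membrane protein, of 0 ± 0.16.

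In the list of acute phase and complement genes, 7 of 21 measured genes fell and 0 rose. A2m, the protease inhibitor alpha-2-macroglobulin, read 6.16, 6.18 and 6.51 in day 6 cells and 10.98, 10.72 and 11.51 in astrocytes, a log2 fold change of -4.79 ± 0.22. Lbp, which binds bacterial lipopolysaccharide (-2.11 ± 0.14), the complement gene C4b (-1.38 ± 0.22) and the metallothioneins Mt1 (-1.17 ± 0.11) and Mt2 (-1.37 ± 0.12) fell beside C1s1 and C1ra. The other 14, Hp, Crp, Saa1 and the fibrinogen genes among them, were not called. All 14 lay below the array's median on all 12 arrays, so the list's median of 0.03 (0.04 for all genes) comes from genes at low levels in both groups and says nothing of the rest. Of 25 measured genes of the cytokine, STAT3, NF-kB and C/EBP pathways 8 fell and 1 rose, with a median of -0.48. Tnfrsf12a, the receptor of the cytokine TWEAK (-2.21 ± 0.17), the transcription factor Cebpd (-1.88 ± 0.20), Il6st, the shared receptor chain gp130 (-1.73 ± 0.09), and the kinase Jak2 (-1.57 ± 0.15) fell. Stat3 itself was not called (-0.98 ± 0.08). The gene that rose was Ccl7, a chemokine (1.03 ± 0.21), and its call was lost without astrocytes replicate 2 or 3 or day 6 replicate 1.

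**Figure D3:**
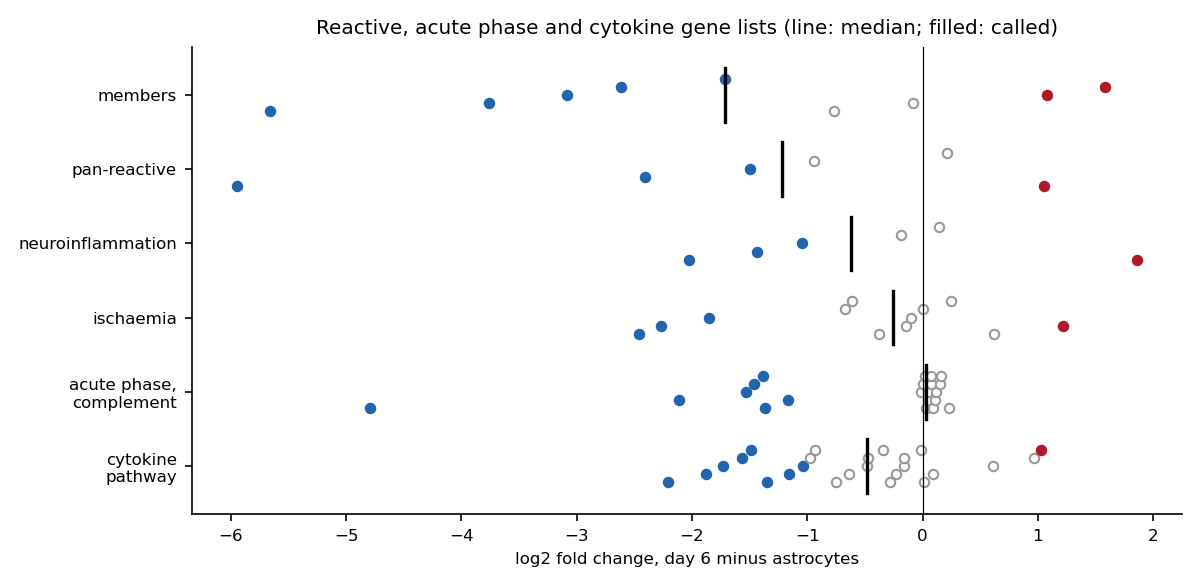
Log2 fold change of day 6 cells against astrocytes (horizontal axis) for each measured gene of 6 lists, with filled points for called genes (blue lower, red higher) and a line at each list's median. The 9 genes have a median of -1.71 with calls both ways, and the 14 acute phase genes that were not called lie near 0 beside 7 that fell.

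Against NSCs, which carry the same reporter, 4 of the 9 genes were higher in day 6 cells and 0 lower, where 8.88% of all genes changed (2.94% higher and 5.94% lower). These were Serping1 (2.25 ± 0.14), Timp1 (2.48 ± 0.13), Cd44 (1.36 ± 0.13) and Anxa1 (5.48 ± 0.35), with adjusted p of at most 9e-06. The arrays of the groups did not overlap for 7 of the 9 genes, with 6 higher and 1 lower on every day 6 array. Of all genes 63.9% did not overlap, 39.7% higher and 24.2% lower. Cp and Lcn2 overlapped (0.06 ± 0.10 and 0.08 ± 0.22), and both differences changed sign under some settings, cyclic loess among them. S1pr3 was the gene lower on every day 6 array (-0.45 ± 0.12, adjusted p = 0.013, under the fold limit). The median of the 9 was 0.85, beside 0.07 for all genes. Of 12 ischaemia genes 6 were higher and 1 lower, with Ptgs2 (4.80 ± 0.26) and Cd109 (3.76 ± 0.19) the farthest apart. Of the 8 annexin list genes 6 were higher and 1, Anxa3 (-1.53 ± 0.16), lower. Osmr (3.38 ± 0.20) and Hspb1 (2.96 ± 0.15) were also higher in day 6 cells than in NSCs, and so was Socs3, the feedback inhibitor of STAT3 signalling (1.91 ± 0.21). In day 6 cells against astrocytes, by contrast, Socs3 was among the genes that fell (-1.35). Of the 25 cytokine pathway genes 4 were higher in day 6 cells than in NSCs and 1, Jak2, was lower (-2.03 ± 0.17). Of the 21 acute phase genes 1, Mt2, was higher (1.14 ± 0.13, a call lost without NSC replicate 2) and 1, A2m, lower (-2.29 ± 0.24). Of the 8 neuron markers 4 were lower in day 6 cells than in NSCs and 1 was higher, and their part in the result was not tested.

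Astrocyte iPSCs were also compared with day 6 cells. The labels do not say that these mature lines descend from the sorted day 6 cells. The dose of LIF differed and feeder RNA may be present. Rose and fell therefore mean higher and lower in the iPSCs, and no course over time was followed. Here 2 of the 9 genes fell and 0 rose, where 6.11% of all genes changed (3.29% upward and 2.82% downward). These were Cd44 (-2.37 ± 0.13, adjusted p = 1.7e-07) and Anxa1 (-2.64 ± 0.35, adjusted p = 0.00014). Without 1 of the 2 iPSC arrays the Anxa1 fold change was -1.99 (replicate 1 left out) or -3.28 (replicate 2 left out). Serping1 (-0.63 ± 0.14) and S1pr3 (0.49 ± 0.12) passed the p limit only, with adjusted p of 0.0046 and 0.011. These 4 genes did not overlap between the groups, 1 higher and 3 lower on every iPSC array, where 53.4% of all genes did not, 25.3% higher and 28% lower. The other 5 overlapped, among them Timp1 (0.03 ± 0.13, 95% confidence interval -0.25 to 0.32). The median of the 9 genes was 0.12, beside -0.03 for all genes. Of the 12 ischaemia genes 4 fell, Cd109 the farthest (-4.26 ± 0.19), and 1, B3gnt5, rose (1.78 ± 0.17). Of the annexin list 4 fell and 1 rose.

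NSCs and astrocytes are the 2 neural groups that were given no reprogramming factors. Between them 8 of the 9 genes were lower in NSCs and 0 higher, where 14.6% of all genes changed (6.49% higher and 8.1% lower). The arrays did not overlap for any of the 9, all lower in NSCs, where 59.3% of all genes did not, 27% higher and 32.3% lower. Besides Cp, the 8 were Serpina3n (-4.43 ± 0.25), Serping1 (-3.96 ± 0.14), Anxa1 (-3.90 ± 0.35), Lcn2 (-2.70 ± 0.22), S1pr3 (-2.63 ± 0.12), Cd44 (-2.13 ± 0.13) and Timp1 (-1.40 ± 0.13), and their largest adjusted p was 3.5e-06. Steap4 was not called (-0.93 ± 0.25) and passed the fold limit without astrocytes replicate 3 (-1.12) or NSC replicate 1 (-1.05). The median of the 9 was -2.70, beside -0.03 for all genes. Osmr (-5.78 ± 0.20) and Ptgs2 (-4.94 ± 0.26) were also lower in NSCs, and so were 7 of the 8 annexin list genes, all but Anxa6 (0.10 ± 0.07). Of the 8 neuron markers 4 were higher in NSCs than in astrocytes, among them Dcx (3.95 ± 0.23), Snap25 (3.09 ± 0.13) and Syt1 (3.02 ± 0.18), and 1, Stmn2, was lower (-1.55 ± 0.23). Their part in the levels of the 9 genes was not tested.

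**Figure D4:**
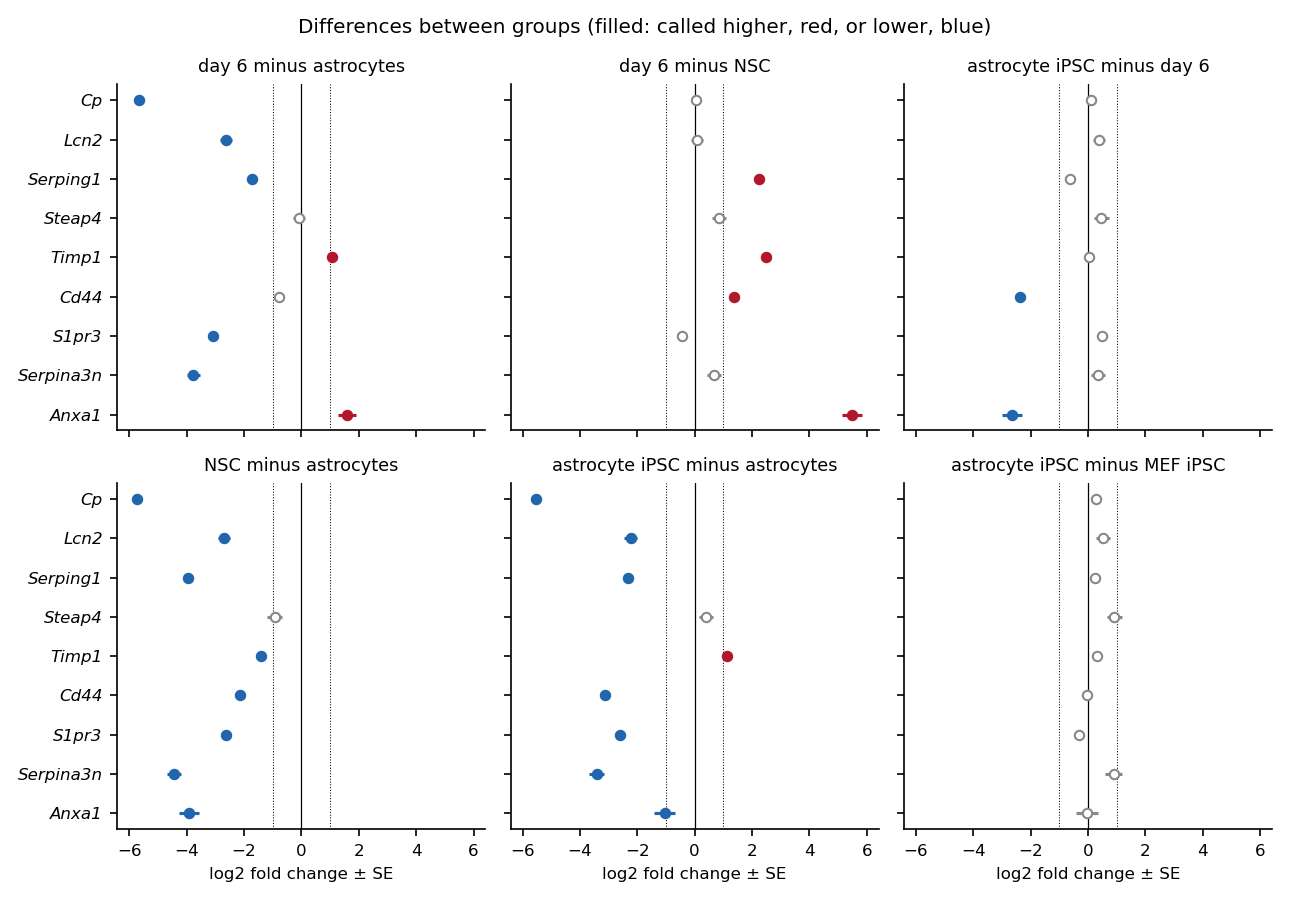
Log2 fold change with its standard error (bars, some within the points) of the 9 genes in 6 comparisons, with dotted lines at the fold limit of 1 either way and filled points where a gene was called. Against astrocytes 8 of the 9 genes are called lower in NSCs, and 5 are called lower and 2 higher in day 6 cells.

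Astrocyte iPSCs against the astrocytes they derive from had 7 of the 9 genes lower and 1 higher, where 20.8% of all genes changed (9.44% higher and 11.4% lower). Cp (-5.54 ± 0.10), Serpina3n (-3.42 ± 0.25), Cd44 (-3.14 ± 0.13), S1pr3 (-2.60 ± 0.12), Serping1 (-2.34 ± 0.14) and Lcn2 (-2.23 ± 0.22) were lower. Timp1 was higher (1.11 ± 0.13, adjusted p = 1.6e-05), and fell under the fold limit without iPSC replicate 2 (0.95). Anxa1 was lower (-1.05 ± 0.35, adjusted p = 0.025), a call lost under 5 of the settings tried. Among them were leaving out iPSC replicate 1 (-0.41, adjusted p = 0.38) or astrocytes replicate 1 (-1.03, adjusted p = 0.06) and centring arrays on their medians (-0.96). Steap4 overlapped between the groups (0.39 ± 0.25). The other 8 did not overlap, 1 higher and 7 lower in iPSCs, where 63.4% of all genes did not, 31.5% higher and 31.9% lower. The median of the 9 was -2.34, beside 0.01 for all genes.

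Between the iPSC lines 0 of the 9 genes were called by limma, where 0.742% of all genes were (0.461% higher and 0.281% lower in astrocyte iPSCs), and 0 of the 9 passed adjusted p under 0.05 with no fold limit, where 5.77% of all genes did. The arrays did not overlap for 6 of the 9, 5 higher and 1 lower in astrocyte iPSCs, where 45.1% of all genes did not, 22.5% higher and 22.6% lower. The widest differences were Steap4 (0.92 ± 0.27, adjusted p = 0.081, 95% confidence interval 0.33 to 1.52) and Serpina3n (0.89 ± 0.28, adjusted p = 0.1, 0.28 to 1.50). Steap4 was called without astrocyte iPSC replicate 1 (1.42, adjusted p = 0.0067), and its difference was 0.43 without replicate 2.

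The 2 astrocyte iPSC arrays were not alike in these genes. All 9 were higher on replicate 2 than on replicate 1, by 0.32 (Timp1) to 1.29 (Anxa1) on the log2 scale and by a median of 0.45, while 52.6% of all genes were higher there, with a median difference of 0.01. In the other groups 2 to 5 of the 9 genes were higher on replicate 2. Of the fibroblast and meninges markers, which MEF feeder cells would also express, all 12 were higher on astrocyte iPSC replicate 2, and their summed intensity was 4294 on replicate 1 and 7677 on replicate 2. It was 3645 to 3898 in MEF iPSCs, 1662 to 1817 in day 6 cells, 1884 to 2269 in NSCs and 5776 to 6406 in astrocytes. In astrocytes a single gene, Thy1, made up 52.1% to 61.9% of this sum, and in NSCs Pdgfra made up 38.7% to 45.9%. Without Thy1 the sum was 3984 and 7325 in astrocyte iPSCs, 3397 to 3605 in MEF iPSCs, 1488 to 1669 in day 6 cells, 1793 to 2153 in NSCs and 2200 to 3068 in astrocytes. Dcn, a matrix proteoglycan of fibroblasts, read 10.48 and 11.26 in astrocyte iPSCs, against 6.54, 6.31 and 6.37 in day 6 cells and 6.88, 6.81 and 8.48 in astrocytes. Against astrocytes 5 of the 12 markers were called lower in day 6 cells, among them Thy1 (-4.50 ± 0.11) and Foxc1 (-1.97 ± 0.15), and 0 higher. In NSCs against astrocytes 5 were lower and 1, Pdgfra, higher. The part of fibroblast or meningeal cells in the iPSC levels and in the comparisons with astrocytes was not tested. Cd44 and Anxa1 stayed lower in astrocyte iPSCs than in day 6 cells with either iPSC array left out. Both iPSC arrays had higher marker sums than any day 6 array, so leaving out either does not test the part of fibroblast RNA.

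**Figure D5:**
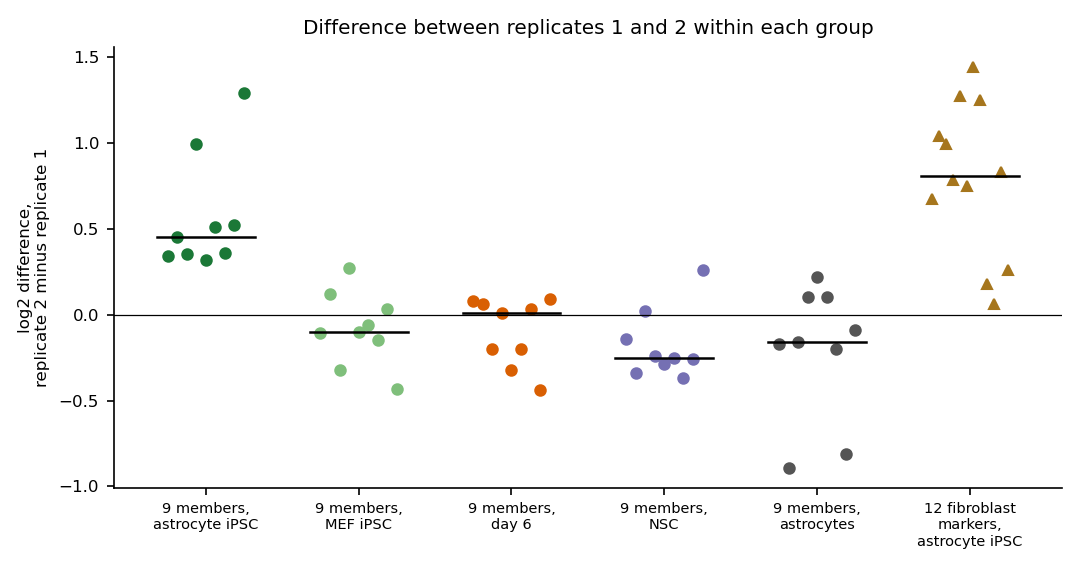
Log2 difference of replicate 2 minus replicate 1 (vertical axis) of each of the 9 genes in each group (circles) and of the 12 fibroblast markers in astrocyte iPSCs (triangles), with the median as a line. All 9 genes lie above 0 in astrocyte iPSCs, with a median of 0.45, and the medians of the other groups lie between -0.25 and 0.01.

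When the 5 groups were put in order of level for each gene, 16 of the 36 neighbouring pairs differed at an adjusted p under 0.05. Astrocytes were highest for Cp, Lcn2, Serping1, Cd44, S1pr3 and Serpina3n, day 6 cells for Anxa1, and astrocyte iPSCs for Steap4 and Timp1, where they did not differ from the next group (adjusted p = 0.24 and 0.90). Below astrocytes, no neighbouring groups differed for Cp, Lcn2 and Serpina3n. Among these 4 groups no pair at all differed for Cp or Lcn2, while Serpina3n was higher in astrocyte iPSCs than in NSCs (1.01 ± 0.28, adjusted p = 0.012). It read 6.57 and 7.08 in astrocyte iPSCs, with 1 array above its median, and 5.95 and 5.69 in NSCs, with 0 above. This Serpina3n difference is therefore between levels near or below the array medians, and that pair of groups was not refitted under other settings. For Cd44 the order was astrocytes, day 6 cells, NSCs and then both iPSC groups, with each step but the last past the test. For Anxa1 it was day 6 cells, astrocytes, both iPSC groups and NSCs, and only the iPSC groups did not differ. Of all genes the same p limit was passed by 29.6% in astrocyte iPSCs against day 6 cells, 42.3% in astrocyte iPSCs against NSCs, 51% in astrocyte iPSCs against astrocytes, 29.8% in MEF iPSCs against day 6 cells, 41.4% in MEF iPSCs against NSCs and 50.2% in MEF iPSCs against astrocytes. It was passed by 38.4% in day 6 cells against NSCs, 48.9% in day 6 cells against astrocytes and 45.9% in NSCs against astrocytes. These shares are for fixed pairs of groups, while the neighbouring pairs were set by each gene's own order, so they are unlike measures. The share of neighbouring pairs that differ was not counted over all genes.

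Over the 12 arrays, which fall into 5 groups, the correlations describe shared group patterns only. Cp, Lcn2, S1pr3 and Serpina3n had Pearson's r of 0.93 to 0.98 with each other, Timp1 and Anxa1 had 0.76, and Timp1 with Cp -0.21. The genes closest to Cp, by r over the 12 arrays, were Ogn (1.00 after rounding), Gpr37l1 and Ecrg4 (0.999 each). Serping1 was closest to Osmr (0.993), Ctnnal1 (0.989) and Hspb8 (0.985). Anxa1 was closest to S100a6 (0.967), a calcium-binding protein, Niban2 (0.958) and Rexo2 (0.951), and Timp1 to Gsta4 (0.982), a glutathione transferase, Cnksr1 (0.974) and Acot9 (0.968). Cd44 was closest to Cpne3 (0.987) and to Emp2 and Elmo2 (0.986 each), and Lcn2 to Pdgfd (0.988), Naaladl2 (0.987) and Olfml1 (0.986). S1pr3 was closest to P4ha3, Ccpg1 and Ston2 (0.991 each), and Serpina3n to Col5a2 (0.991), F3 (0.989) and Lpp (0.988). Steap4, whose levels differ little, had no closer gene than Ccl6 (0.873), Alkbh7 (0.866) and Clec2d (0.857).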

How the data were processed

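Total RNA was amplified with the GeneChip WT PLUS kit and hybridised to 12 arrays in 5 groups, per the labels and the design text. The deposited values are linear probe set intensities made by the authors with RMA, per the submitters' processing notes. Its software and version are not stated there. They ran from 20.2 to 15436, with array medians of 97.9 to 104.9, and log2 was taken before each step. A log2 table had been planned for. A constant added before deposit would shrink differences of dim genes, so 16 was also subtracted.

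Of 28853 probe sets 21789 carry 1 symbol, and the brightest of each gene was kept, with no filter on dim genes. Of 231 entries of the gene lists 204 were measured, and the rest were not analysed here. limma 3.58.1 (R 4.3.3) gave the differences from 1 mean per group (7 residual degrees of freedom, 10.9 with the prior), and errors are standard errors. The fit was tested on simulated data. The other steps used pandas 2.3.3 and numpy 2.4.6 in Python 3.11.15, with figures from matplotlib 3.10.9.

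The 9 genes, the lists and the tests were chosen with earlier results of these data known. All 9 genes are named. From each wider list up to 4 called genes with the largest fold change are named against astrocytes and up to 2 elsewhere, together with 3 genes most like each of the 9. Genes named beyond that rule were chosen after their values were seen, or as partners. They were cell type markers, C4b, Mt1, Mt2, Stat3, Ccl7, Ptgs2, Cd109, Emp1, Socs3 against astrocytes and the partners of each gene. The number of arrays limits the precision.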

Additional observations from a re-analysis of the deposited data

How the results depend on the processing

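The 9 genes were refitted under 11 other settings and without each of the 12 arrays in turn. Where 1 array of a group was left, it was assumed to vary like the other groups. With no fold limit, 4 of the 9 genes passed in astrocyte iPSCs against day 6 cells, and all-gene counts were 9755 (day 6 cells against astrocytes), 7655 (day 6 cells against NSCs), 5896 (astrocyte iPSCs against day 6 cells), 9144 (NSCs against astrocytes), 10173 (astrocyte iPSCs against astrocytes) and 1150 (between iPSC lines), against 3360, 1771, 1218, 2907, 4154 and 148 with it. Between iPSC lines 1 of the 9 was called with 16 subtracted (Serpina3n, 1.10, adjusted p = 0.047), and 0 to 1 with arrays left out. Steap4 in NSCs against astrocytes passed with 16 subtracted (-1.20) and with array weights (-1.01), and in day 6 cells against NSCs with 16 subtracted (1.11). The sign of 17 uncalled values changed. For day 6 cells against NSCs, Cp became -0.01 and Lcn2 -0.04 with cyclic loess. Cp became 0 after rounding and Lcn2 -0.09 without NSC replicate 2, and Lcn2 was -0.02 without day 6 replicate 3. For astrocyte iPSCs against day 6 cells, Timp1 became -0.03, 0 after rounding and -0.13 without day 6 replicate 2, day 6 replicate 3 and iPSC replicate 2. Without that iPSC array Cp was -0.05 and Steap4 -0.03, and Steap4 was -0.11 against astrocytes. Between iPSC lines, without astrocyte iPSC replicate 1, Cd44 was 0.23 and Anxa1 0.61, and without MEF iPSC replicate 1 they were 0.01 and 0.19. Steap4 in day 6 cells against astrocytes became 0.02 centred and 0.04 without astrocytes replicate 2. With arrays left out one at a time these values otherwise reached -0.26 (Steap4, day 6 cells against astrocytes), 0.13 and 0.25 (Cp and Lcn2, day 6 cells against NSCs), 0.29 and 0.96 (Cp and Steap4, astrocyte iPSCs against day 6 cells), 0.88 (Steap4, astrocyte iPSCs against astrocytes), and -0.28 and -0.67 (Cd44 and Anxa1, between iPSC lines). Anxa1 in astrocyte iPSCs against astrocytes was also not called with trend and robust settings (adjusted p = 0.056) or at an adjusted p under 0.01. The cause was not tested. Centring moved the median of all genes by at most 0.10.

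Whether replicate numbers pair the samples could not be decided. Correlations between arrays were taken here after each gene's group mean had been subtracted. Same-numbered arrays of day 6 cells and astrocytes then correlated at 0.41, -0.01 and 0.22, and unlike-numbered arrays at -0.37 to 0.16. With so few arrays per group these values can neither show nor exclude pairing. With the replicate number as a block, Steap4 in NSCs against astrocytes passed (-1.03, adjusted p = 0.0061) and 9 of the 9 genes were lower there. The counts of the 9 in the other 5 comparisons were as without the block.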

Other observations

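The matrix and iron genes Mmp3, Has2 and Slc40a1 were higher on every array of both iPSC groups than on any day 6 or astrocyte array. Mmp3, a matrix metalloproteinase (stromelysin), had log2 intensities of 9.30 and 10.20 in astrocyte iPSCs, against 5.23, 5.23 and 5.43 in day 6 cells (log2 fold change 4.45 ± 0.22) and 5.50, 5.32 and 5.37 in astrocytes (4.35 ± 0.22). It was also higher than in MEF iPSCs, which read 7.62 and 7.22 (2.33 ± 0.24). Has2, a hyaluronan synthase, read 7.35 and 7.08 in astrocyte iPSCs, against 5.42, 5.50 and 5.54 in day 6 cells (1.73 ± 0.09) and 5.51, 5.50 and 5.47 in astrocytes (1.72 ± 0.09). MEF iPSCs read 7.67 and 7.60 for Has2, and it was not called between the lines (-0.42 ± 0.10). Slc40a1, the iron exporter, read 8.02 and 7.76 in astrocyte iPSCs, against 5.85, 5.86 and 5.78 in day 6 cells (2.06 ± 0.12) and 5.43, 5.47 and 5.74 in astrocytes (2.35 ± 0.12). MEF iPSCs read 7.45 and 7.17 for Slc40a1, and it was not called between the lines (0.58 ± 0.13). Between the iPSC lines Srgn, a secretory granule proteoglycan, was lower in astrocyte iPSCs (-2.26 ± 0.14), and so was A2m (-1.51 ± 0.26), a call lost without MEF iPSC replicate 1. These genes were chosen after their values were seen, and 9 of the 12 fibroblast markers were called higher in astrocyte iPSCs than in day 6 cells and 0 lower. Against astrocytes 6 were called higher and 2, Thy1 and Foxc1, lower. Their part in these values was not tested.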
